A study of Mus musculus with 9 samples.

Results

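Gas5, Snhg1, Snhg3, Snhg5, Snhg6, Snhg8 and Snhg12 are 7 noncoding RNA genes that host small nucleolar RNAs (snoRNAs) and are well-known targets of nonsense-mediated decay (NMD). They were taken by name, in a choice made with earlier results of these data known, and matched by symbol to the Ensembl identifiers of the count table, where all 7 were found among 57010 genes. Testing was limited to the 13680 genes whose count exceeded 10 reads in all 9 embryos, and 6 of the 7 host RNAs were among them. The remaining host RNA, Snhg3, had no read in any embryo.

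Poly(A) RNA was sequenced from microdissected cortices of single E12.5 mouse embryos, 3 control (Ctrl, labelled wild type), 3 Cnot3 conditional knockout (cKO) and 3 Cnot3;Trp53 double conditional knockout (dcKO). The cKO carries Cnot3 lox/lox and Emx1-Cre and so loses a core subunit of the CCR4-NOT complex, which shortens poly(A) tails. The dcKO carries Trp53 lox/lox in addition, which removes the stress-response factor p53. Emx1-Cre acts in radial glial cells of the dorsal telencephalon and in the cells they give rise to, so vessels, blood and mesenchyme in the same tissue keep both genes, and the labels do not give the Cre or lox alleles of the controls.

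The libraries held 21193798 to 45073349 reads assigned to genes, the most in dcKO replicate 2. Cnot3 reads scaled to library size (CPM) were 13.5% to 16.1% of the control mean in the cKO embryos. In the dcKO embryos Cnot3 was at 6.82%, 44.9% and 17.7% and Trp53 at 6.41%, 46.9% and 8.76% in replicates 1, 2 and 3, so dcKO replicate 2 kept more of both targeted RNAs than the other dcKO embryos. Markers of dorsal telencephalic progenitors summed to 1248 to 1920 CPM in Ctrl, 1014 to 1079 in cKO and 1216 to 1705 in dcKO, and all 8 were present in every embryo. The 6 subpallial markers summed to at most 0.489 CPM in every embryo except dcKO replicate 2, where they reached 8.43. In bulk tissue, fewer cells of a type and less RNA per cell cannot be told apart.

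A snoRNA host gene is transcribed as a precursor whose introns contain the snoRNAs, and these are trimmed out of the introns after splicing and guide chemical modification of ribosomal RNA. The spliced host RNA has only short reading frames, and when ribosomes translate them NMD recognizes the RNA and degrades it, so that such RNAs accumulate when NMD or translation is blocked. Many of these genes start transcription at a run of pyrimidines, as ribosomal protein genes do.

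The start regions are shown for these features. RefSeq (build GRCm38.p6) lists 7 starts for 6 of the host genes, all but Snhg6, and each is printed from 45 bases before the start through its first 20 bases. Capitals mark a TATA or TATATA beginning 40 to 19 bases before the start, where a TATA box would lie, and the longest run of C and T within 20 bases of the start on either side.
Gas5 upstream start, chr1:161034556-161034620, plus strand: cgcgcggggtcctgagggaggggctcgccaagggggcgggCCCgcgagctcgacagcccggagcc
Gas5 downstream start, chr1:161035121-161035185, plus strand: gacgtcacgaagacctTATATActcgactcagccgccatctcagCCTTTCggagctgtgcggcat
Snhg1, chr19:8723442-8723506, plus strand: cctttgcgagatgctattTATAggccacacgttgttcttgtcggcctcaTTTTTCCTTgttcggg
Snhg3, chr4:132353667-132353731, minus strand: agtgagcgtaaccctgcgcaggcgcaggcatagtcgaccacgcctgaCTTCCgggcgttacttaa
Snhg5, chr9:88522878-88522942, minus strand: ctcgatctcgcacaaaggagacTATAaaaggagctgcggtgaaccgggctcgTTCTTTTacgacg
Snhg8, chr3:123508317-123508381, minus strand: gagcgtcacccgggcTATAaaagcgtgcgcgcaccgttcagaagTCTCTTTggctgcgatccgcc
Snhg12, chr4:132308633-132308697, plus strand: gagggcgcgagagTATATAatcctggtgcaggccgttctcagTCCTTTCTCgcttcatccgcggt

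Of these 7 starts, 5 had TATA on the coding strand in that window (71.4%), at Gas5 (downstream start), Snhg1, Snhg5, Snhg8 and Snhg12. The same letters stood in that place at 5.91% of 32851 RefSeq starts, at 8.96% of 67 ribosomal protein gene starts and at 7.69% of 13 starts of other noncoding snoRNA hosts. The Snhg3 start and the upstream Gas5 start lacked them. The median pyrimidine run was 7 bases (range 3 to 9) at the host starts, 7 at ribosomal protein starts and 5 at all starts. This run lies near the start but need not begin at it. It began at transcribed base 5 for Snhg1, 8 for Snhg5 and 3 for Snhg3, and 5 bases before the upstream Gas5 start. Snhg1 and Snhg12 had the longest runs, 9 bases, which 10.7% of all starts matched or exceeded. These are matches of letters, read on a different build from the mm39 alignment, and are not measured sites.

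Gas5, the growth arrest-specific RNA, was the most abundant host RNA in control cortex at 33.6 ± 4.39 CPM per kilobase of exon (RPKM; SD, n = 3). Snhg6 followed at 9.63 ± 2.23, Snhg5 at 7.05 ± 1.25, Snhg8 at 6.96 ± 3.07 and Snhg1 at 5.96 ± 0.169 RPKM. Snhg12 was lowest at 1.20 ± 0.414. Gas5 stood clear of the others and Snhg12 stood below them in every control embryo. The 4 in between overlapped with their neighbours in this order: Snhg6 spanned 7.99 to 12.2 RPKM, Snhg5 5.92 to 8.39, Snhg8 3.42 to 8.89 and Snhg1 5.77 to 6.06. Exon length is the union of all annotated exons, which for Snhg1, Snhg8 and Snhg12 is the whole span of the gene. It is nearly the whole span for Gas5 (3760 of 4118 bases) and Snhg5 (1730 of 1880), and 1146 of 2160 bases for Snhg6. A union this long sets RPKM lower than a spliced length would, and the order of levels carries this limit.

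**Figure D1:**
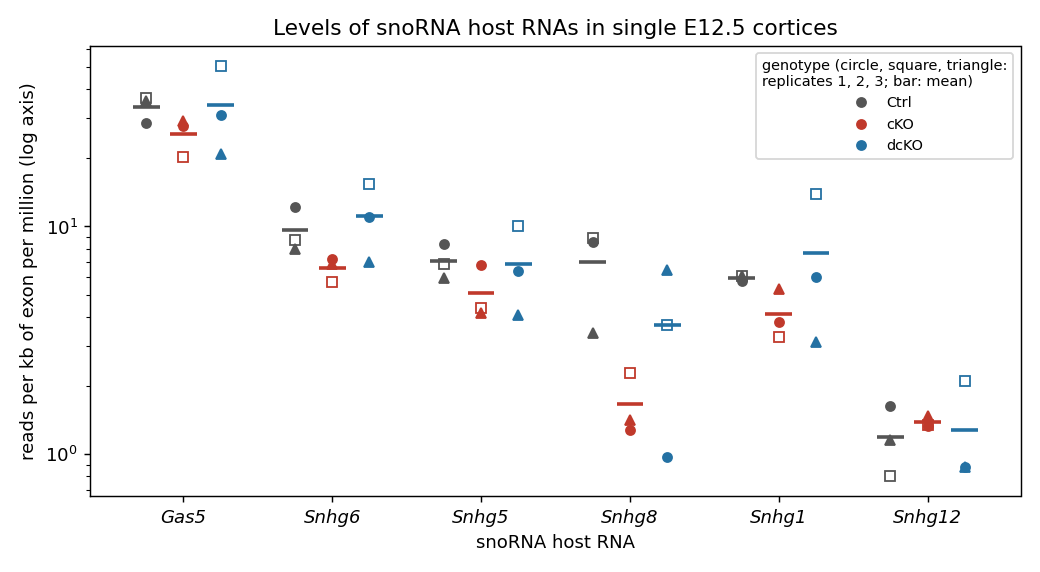
Level of each tested host RNA in single cortices, in RPKM on a log axis, with 1 point per embryo and a bar at the mean of 3 embryos per genotype. Gas5 lies above 20 in every embryo, all 3 cKO embryos lie below the 3 Ctrl embryos for Snhg6, Snhg8 and Snhg1, and dcKO replicate 2 (open blue square) is the highest point for every host RNA except Snhg8.

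Snhg3, which carries the Snora73a and Snora73b genes, was not detectable, with 0 reads in each of 9 libraries. The 2-sided 95% Poisson interval of 0 reads reaches 3.69 reads, and a floor of 3 reads corresponds to 0.0766 to 0.149 CPM, both for counting error alone. Its start lies 81 bases from that of Rcc1, the gene for the nuclear exchange factor RCC1, on the same strand, and Rcc1 had 3112 to 4334 reads in every embryo. Of the 986 exon bases of Snhg3, 13.7% also belong to Rcc1 exons and 71.5% lie antisense to exons of the noncoding gene Gm17300. Rcc1 itself was 0.49 lower on the log2 scale in cKO than in Ctrl (log2 fold change -0.49, SE 0.198, edgeR adjusted p = 0.147) and 0.46 lower in dcKO (-0.46, SE 0.198, edgeR adjusted p = 0.157). Whether reads of Snhg3 were lost to these overlaps in counting was not tested.

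The cKO against Ctrl comparison asks what loss of Cnot3 does to these RNAs. Snhg8 was at 0.239 of its control level, Gas5, Snhg1, Snhg5 and Snhg6 had fitted ratios from 0.682 (Snhg6) to 0.760 (Gas5), and Snhg12 had a ratio of 1.16. No host RNA passed edgeR's quasi-likelihood test at an adjusted p of 0.05 and an absolute log2 fold change of 1, a rule that called 2 of all 13680 genes (0.0146%). That rule did not call Cnot3 itself, with log2 fold changes of -2.78 in cKO (edgeR adjusted p = 0.0509) and -2.11 in dcKO (edgeR adjusted p = 0.0529). For Cnot3 the DESeq2 adjusted p was 1.22e-05 and 0.00119. A gene that edgeR did not call here is thus not shown to be unchanged. DESeq2, the tool the study used, called 1 host RNA, Snhg8, as lower at the same thresholds, where it called 3.87% of all genes lower and 8.82% in either direction. Among the 6 host RNAs the median log2 fold change was -0.49 and 5 were below 0. Over all genes tested the median was 0.0098 and 50.7% were above 0.

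Snhg8, the host of Snora24, had 7.30, 7.59 and 2.92 CPM in Ctrl and 1.09, 1.93 and 1.21 in cKO. All 3 cKO embryos were below all 3 controls, although Ctrl replicate 3 was well below the other controls and its 81 reads (95% Poisson interval 64.3 to 100.7) did not reach their intervals. The log2 fold change was -2.07 (SE 0.646, 95% interval -3.50 to -0.63, edgeR adjusted p = 0.0827, DESeq2 adjusted p = 0.0132), a 4.19-fold lower level. Only 0.322% of all genes tested had a log2 fold change as low. Between embryos whose sample labels share a number, the log2 ratio was -1.91 for cKO replicate 2 against Ctrl replicate 1 and -2.63 for cKO replicate 3 against Ctrl replicate 2. Scaled to Gas5 instead of to the library, Snhg8 gave 68.1, 55.3 and 21.8 reads per 1000 Gas5 reads in Ctrl and 10.6, 25.5 and 11.1 in cKO, so the groups overlapped by this measure (two-sided exact permutation p = 0.2, where 3 against 3 embryos cannot go below 0.1).

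Snhg1, the host of the Snord22 gene among others, had 17.1, 18.0 and 18.0 CPM in Ctrl and 11.3, 9.74 and 15.8 in cKO. The controls were nearly level and every cKO embryo was below them. Its log2 fold change was -0.53 (SE 0.455, edgeR adjusted p = 0.484, DESeq2 adjusted p = 0.463), within the spread that the 9 embryos gave this gene. Snhg6, the host of Snord87, had 13.9, 10.02 and 9.16 CPM in Ctrl and 8.28, 6.51 and 7.80 in cKO, again with every cKO embryo below every control. Its log2 fold change of -0.55 (SE 0.330) did not pass either (edgeR adjusted p = 0.309, DESeq2 adjusted p = 0.265). Of the Snhg6 exon bases, 11.1% lie antisense to Mcmdc2, and the strand setting of the counting is not given in the sources used here. In the pairs of cKO and Ctrl embryos whose labels share a number, the log2 ratios of Gas5, Snhg1, Snhg5 and Snhg6 were all below 0, from -1.10 (Snhg6, cKO replicate 2 against Ctrl replicate 1) to -0.19 (Snhg1, cKO replicate 3 against Ctrl replicate 2), and those of Snhg12 were -0.27 and 0.87. Groups that did not overlap, with cKO lower, were thus seen for 3 of 6 host RNAs (Snhg1, Snhg6 and Snhg8), where 28% of all genes tested had this pattern.

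Gas5, which contains 9 annotated snoRNA genes, had 107, 137 and 134 CPM in Ctrl and 103, 75.7 and 109 in cKO. Replicates 1 and 2 of the cKO lay below every control and cKO replicate 3 exceeded Ctrl replicate 1, so the groups overlapped. The log2 fold change was -0.40 (SE 0.293, edgeR adjusted p = 0.412). Snhg5, of whose exon bases 8.32% are annotated snoRNA sequence, had 14.5, 11.9 and 10.2 CPM in Ctrl and 11.7, 7.62 and 7.24 in cKO. Here only cKO replicate 1 reached the controls, and the log2 fold change was -0.46 (SE 0.360, edgeR adjusted p = 0.439). Snhg12, which contains the Snora16a, Snora44, Snora61 and Snord99 genes, had 3.91, 1.93 and 2.78 CPM in Ctrl and 3.21, 3.24 and 3.54 in cKO. Its cKO embryos lay inside the control range, with a log2 fold change of 0.21 (SE 0.430, edgeR adjusted p = 0.787). At an unadjusted edgeR p under 0.05, 1 of 6 host RNAs was lower (Snhg8), against 11.7% of all genes tested. In an edgeR fit to the 6 Ctrl and cKO embryos alone, Snhg8 was called as lower (-2.06, edgeR adjusted p = 0.00239), where 5.94% of all genes were. Gas5 (-0.40, edgeR adjusted p = 0.041) and Snhg1 (-0.53, edgeR adjusted p = 0.0431) were below an adjusted p of 0.05 in that fit without reaching the fold threshold, and 24.2% of all genes were lower at that adjusted p.

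**Figure D2:**
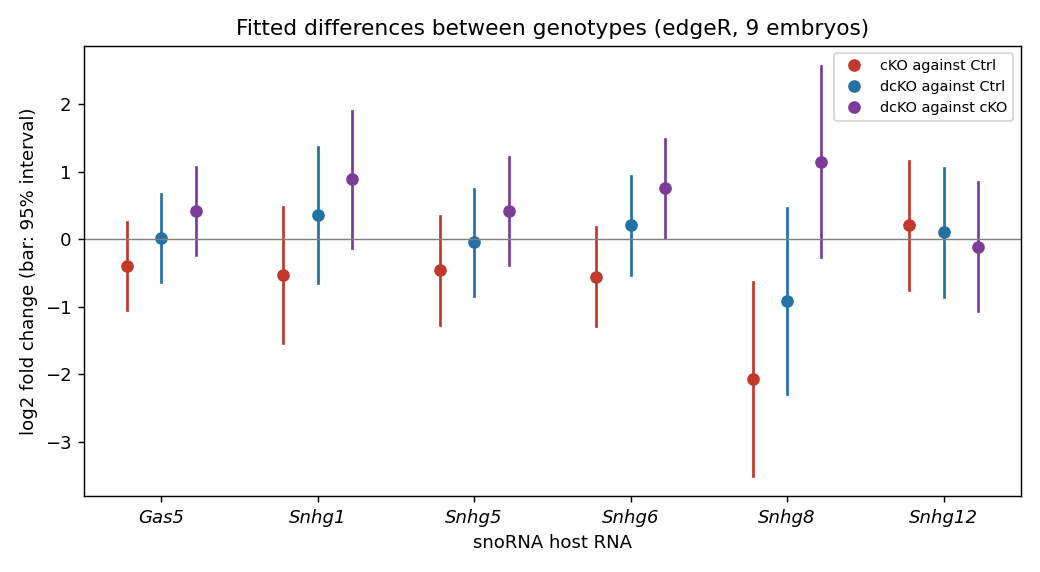
Log2 fold change of each tested host RNA in the 3 comparisons of genotypes, from the edgeR fit to 9 embryos, with 95% intervals as vertical bars. In cKO against Ctrl the interval leaves out 0 for Snhg8 alone (-3.50 to -0.63), and in dcKO against cKO for Snhg6 alone (0.0246 to 1.49).

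The dcKO against Ctrl comparison asks what the host RNAs do when p53 is removed along with Cnot3. None of the 6 was called by edgeR (0% of all genes tested, and no host RNA at an unadjusted p under 0.05, against 29.2% of all genes) or by DESeq2 (8.46% of all genes). None separated the groups, as 26.8% of all genes did in either direction. The median log2 fold change of the host RNAs was 0.063, beside 0.111 over all genes, and 4 of 6 were above 0, as were 56.9% of all genes. In CPM, the dcKO embryos in the order of replicates 1, 2 and 3 held 116.4, 190 and 78.3 for Gas5 and 17.8, 41.2 and 9.27 for Snhg1. They held 11.1, 17.3 and 7.08 for Snhg5 and 12.55, 17.7 and 7.99 for Snhg6. Replicate 2 was above and replicate 3 below all 3 controls for each of these 4 RNAs, and replicate 1 was among the controls.

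Their fold changes were therefore small with wide intervals. Log2 fold changes in dcKO against Ctrl were 0.022 for Gas5 (95% interval -0.63 to 0.67), 0.36 for Snhg1 (-0.64 to 1.37), -0.043 for Snhg5 (-0.84 to 0.75) and 0.21 for Snhg6 (-0.52 to 0.94). Without dcKO replicate 2 they were -0.37 for Gas5, -0.39 for Snhg1, -0.42 for Snhg5 and -0.10 for Snhg6. Snhg12 held 2.11, 5.03 and 2.11 CPM, with replicate 2 above every control, and a log2 fold change of 0.10 (-0.85 to 1.06) that became -0.45 without that embryo. The sign of the dcKO fold change for these 5 thus depended on which embryo was left out. In the 1 dcKO and Ctrl pair whose sample labels share a number (replicate 3 of each), the log2 ratios were -0.78 for Gas5, -0.95 for Snhg1, -0.53 for Snhg5, -0.20 for Snhg6 and -0.39 for Snhg12. Snhg1 in dcKO replicate 2 was 2.33 times the control mean, the highest ratio of any host RNA in any embryo.

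Snhg8 did not share this order of embryos. It had 0.833, 3.14 and 5.51 CPM in dcKO, lowest in replicate 1 and nearly at the control mean in replicate 3 (0.928 of it). The log2 fold change was -0.91 (SE 0.619, 95% interval -2.29 to 0.46, edgeR adjusted p = 0.343, DESeq2 adjusted p = 0.292). It ranged from -1.57 without dcKO replicate 3 to -0.46 without dcKO replicate 1. In limma voom with sample weights it was -2.51 and called as lower (voom adjusted p = 0.0072), where 15.9% of all genes were. In that pair with a shared number, dcKO replicate 3 was 0.91 higher than Ctrl replicate 3 on the log2 scale. Per 1000 Gas5 reads, Snhg8 gave 7.15, 16.6 and 70.3 reads, so that dcKO replicate 3 matched the highest control and the other dcKO embryos were below every control.

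The mutants were also compared with each other. The fitted log2 difference, dcKO minus cKO, was above 0 for 5 of 6 host RNAs, with a median of 0.588, beside 58.6% of all genes above 0 and a median of 0.067. No host RNA passed in edgeR, which called 0.0146% of all genes, or in DESeq2, which called 0.38%, and the groups overlapped for all 6 (6.24% of all genes did not overlap). Snhg6 alone was below an unadjusted edgeR p of 0.05, as 2.05% of all genes were with dcKO higher, and its edgeR adjusted p was 0.889. Its log2 difference was 0.76, with a 95% interval from 0.0246 to 1.49. The differences for Snhg8, at 1.15 (-0.26 to 2.56), and Snhg1, at 0.89 (-0.12 to 1.91), were larger with wider intervals. That of Snhg8 ran from 0.50 without dcKO replicate 3 to 1.61 without dcKO replicate 1. It turned to -0.24 in limma voom with sample weights. With a block on the number in the sample labels, which no dcKO and cKO embryo share, it was 3.18. Gas5 and Snhg5 differed by 0.42 each, and Snhg12 by -0.11 (-1.06 to 0.85). In each case the interval still allows a difference of more than 1.5-fold. Without dcKO replicate 3 edgeR called Snhg1 (1.26) and Snhg6 (1.00) as higher, where it called 2.58% of all genes higher and 6.45% lower. Without dcKO replicate 2 no host RNA was called, and the log2 differences were 0.022 for Gas5, 0.14 for Snhg1, 0.036 for Snhg5, 0.45 for Snhg6, 1.15 for Snhg8 and -0.66 for Snhg12, with a median of 0.089.

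**Figure D3:**
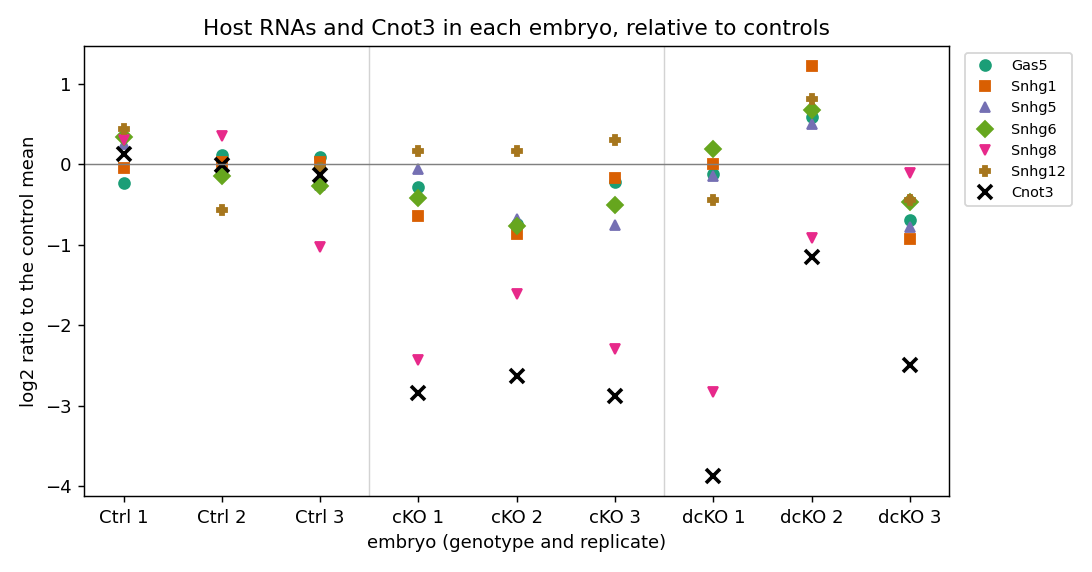
Log2 ratio of each tested host RNA, and of Cnot3 (black crosses), to the mean of the 3 control embryos, by embryo. The 5 host RNAs other than Snhg8 are highest in dcKO replicate 2, and Gas5, Snhg1, Snhg5 and Snhg6 are low in dcKO replicate 3, whereas Snhg8 is lowest in dcKO replicate 1 (0.140 of the control mean) and in the cKO embryos.

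Across the 9 embryos 4 host RNAs were close to each other, Snhg12 was less close to them and Snhg8 was far from all. Likeness was measured as the root mean square difference (RMS) of the log2 ratios to the control mean, over 9 embryos and as a description only. Snhg5 and Snhg6 were closest to each other (0.227), followed by Gas5 with Snhg1 (0.272), Snhg5 (0.286) and Snhg6 (0.293). Snhg12 differed from each of these 4 by 0.539 to 0.612. Snhg8 was the farthest from every other host RNA, with RMS from 1.39 to 1.69.

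The tested genes nearest to the mean profile of the tested host RNAs, Snhg8 included, were also listed. They included Zfp658, Twsg1, Gm2423, BC031181, F2r, Lrrc8b, Dpy19l1, Cpe and Fubp1, with RMS between 0.104 and 0.132. No host RNA lay this near to that mean. Snhg5 was at 0.242, Snhg6 at 0.267, Gas5 at 0.281, Snhg1 at 0.369, Snhg12 at 0.567 and Snhg8 at 1.23. The median over all genes tested was 0.701. Cpe is a carboxypeptidase that processes neuropeptides. The genes nearest to Snhg8 alone, a list made after its values were seen, were less near (RMS from 0.379) and began with Gm8730, Hes5 and Ier2. Hes5, a Notch target of neural progenitors, had log2 fold changes of -1.83 in cKO and -0.99 in dcKO, beside -2.07 and -0.91 for Snhg8.

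Differences between embryos also varied with gene GC content. Over 13561 tested genes with a GC content (99.1%), taken from the longest annotated transcript and divided into 5 equal bins, the median log2 fold change in cKO ran from 0.22 in the bin lowest in GC (31.0% to 43.8%) to -0.49 in the highest (55.2% to 71.3%). In dcKO it ran from 0.54 to -0.56. By embryo, the median log2 ratio of the lowest bin to the control mean was 0.598, 0.879 and -0.097 in dcKO replicates 1, 2 and 3. That of the highest bin was -1.17, -1.25 and 0.180. Replicate 3 was thus on the other side from the other dcKO embryos. The control embryos spanned -0.247 to 0.183 in the highest bin, with Ctrl replicate 3 the lowest.

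All 6 tested host RNAs belong to the 2 bins lowest in GC, from 40.5% for Snhg1 to 47.6% for Snhg12. Snhg12, at 47.594%, lies just under the upper edge of its bin at 47.613%. The transcript used covers 2728 of the 2969 bases of the Snhg1 gene and has 776 bases for the 853 of Snhg8. Such a GC content takes in retained introns and need not be that of the spliced RNA. The lowest bin was above 0 in the cKO embryos (0.227, 0.160 and 0.255), where 5 of 6 host RNAs were below the control mean. Relative to the median of their own bin, the log2 fold changes in cKO were -0.61 for Gas5, -0.75 for Snhg1, -0.64 for Snhg5, -0.77 for Snhg6, -2.25 for Snhg8 and 0.028 for Snhg12. In dcKO they were below the bin median for all 6, from -0.18 for Snhg1 to -1.24 for Snhg8. These values carry no test. Snhg8 also moved with the highest bin in some embryos. The ratio of Snhg8 to the control mean was lowest of the controls in Ctrl replicate 3 (0.492), highest of the cKO embryos in replicate 2 (0.326) and lowest of the dcKO embryos in replicate 1 (0.140), and the median log2 ratio of the highest bin there was -0.247, -0.327 and -1.17. In dcKO replicate 3 Snhg8 was at 0.928 and that bin at 0.180, and in dcKO replicate 2 Snhg8 was at 0.529 with the bin at its lowest, -1.25. In dcKO against cKO the log2 differences exceeded the bin median for 5 of 6, by 0.106 for Gas5 to 1.014 for Snhg8. The part of GC content in the host RNA values was not tested beyond this.

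**Figure D4:**
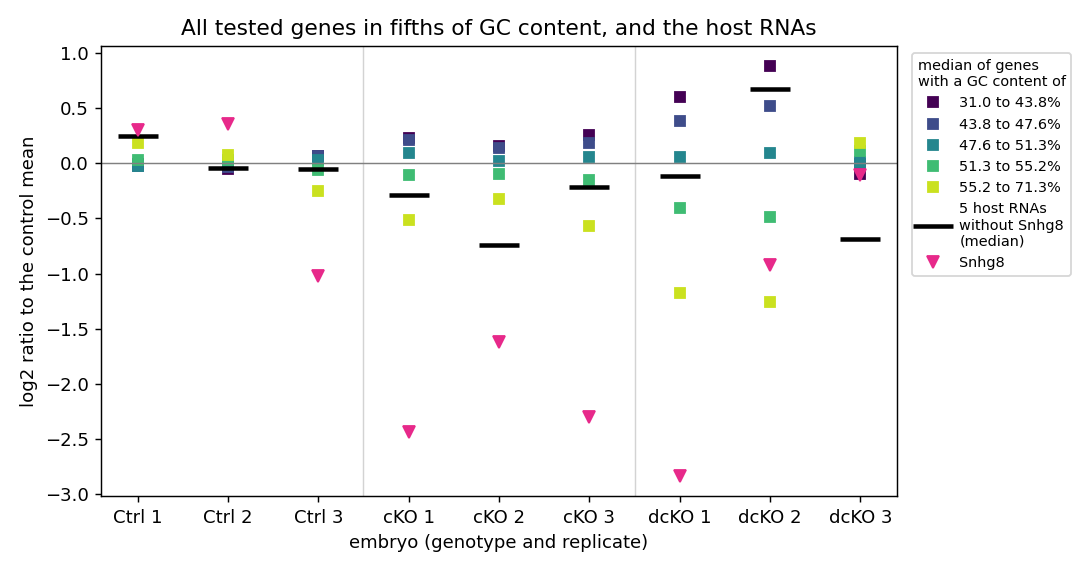
Median log2 ratio to the control mean of all tested genes in 5 bins of transcript GC content (squares, 1 colour per bin), with the median of the 5 host RNAs other than Snhg8 (black bars) and Snhg8 (triangles), by embryo. The bins spread apart most in dcKO replicates 1 and 2 (0.879 to -1.25 in replicate 2) and lie in the opposite order in dcKO replicate 3.

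The snoRNAs themselves could not be followed in these libraries. The count table holds 25 snoRNA genes that lie inside the 7 host genes on the same strand, 9 in Gas5, 8 in Snhg1, 4 in Snhg12, 2 in Snhg3 and 1 each in Snhg6 and Snhg8. Their annotated lengths are 60 to 205 bases, and all 25 had 0 reads in every embryo. Of 1065 snoRNA genes in the table, 103 had any read. Annotated snoRNA sequence makes up 17.8% of the Gas5 exon bases, 20.95% of those of Snhg1 and 19.6% of those of Snhg12, because some annotated host transcripts keep the introns. By this annotation spliced and unspliced host RNA would be counted together, but the annotation release used for the counts is not given.

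Protein-coding genes with starts close by were read alongside. Slc3a2, the heavy chain of an amino acid transporter, starts 106 bases from Snhg1 on the opposite strand. Its log2 fold change was -0.54 in cKO (SE 0.174, edgeR adjusted p = 0.0869, DESeq2 adjusted p = 0.0334) and -0.76 in dcKO (SE 0.174, edgeR adjusted p = 0.0507, DESeq2 adjusted p = 0.00182). Snhg1 was at -0.53 in cKO and at 0.36 in dcKO. Without dcKO replicate 2 the dcKO values were -0.83 for Slc3a2 and -0.39 for Snhg1. Zbtb37, a zinc finger gene that starts 427 bases from Gas5 on the opposite strand, had -0.31 in cKO and 0.34 in dcKO, beside -0.40 and 0.022 for Gas5, and the dcKO values became -0.15 and -0.37 without dcKO replicate 2.

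Other genes of the same pathways give the surroundings of these values, by counts of lists chosen with earlier results of these data known. Of 14 other noncoding snoRNA hosts, 12 were matched (not Snhg4 or Snhg7) and 8 tested, with median log2 fold changes of -0.26 in cKO and 0.010 in dcKO. Of these 8, Snhg11 and Snhg18 passed in DESeq2 as higher in both mutants, where it called 4.94% of all genes higher in cKO and 4.66% in dcKO. Snhg11, a long noncoding RNA of neurons, had 0.448, 0.843 and 0.433 CPM in Ctrl, 2.99, 1.60 and 2.60 in cKO and 3.22, 2.48 and 1.74 in dcKO. Every mutant embryo was above every control, which was a condition for naming a gene of these lists. Snhg11 had log2 fold changes of 2.07 (SE 0.447, DESeq2 adjusted p = 0.00205, edgeR adjusted p = 0.0509) and 2.12 (SE 0.446, DESeq2 adjusted p = 0.00160, edgeR adjusted p = 0.0502). Snhg18 had 9.95, 9.77 and 11.8 CPM in Ctrl and 18.0 to 31.0 in the 6 mutants, with log2 fold changes of 1.19 in cKO (SE 0.285, DESeq2 adjusted p = 0.00233) and 1.15 in dcKO (SE 0.285, DESeq2 adjusted p = 0.00374). No noncoding host, these included, passed in edgeR.

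Protein-coding genes that host snoRNAs were divided. All 17 were tested, with medians of -0.10 in cKO and 0.081 in dcKO, and DESeq2 called 1 higher and 2 lower in each mutant, where it called 3.87% of all genes lower in cKO and 3.79% in dcKO. Eif4a2, a translation initiation helicase, was higher by 1.58 in cKO and 1.88 in dcKO on the log2 scale (DESeq2 adjusted p = 0.000478 and 3.0e-05). Eef2, the elongation factor that moves the ribosome, was at -1.26 and -1.30 (DESeq2 adjusted p = 0.0358 and 0.0256), and Rpsa, a protein of the small ribosomal subunit, at -1.14 and -1.04 (DESeq2 adjusted p = 0.00136 and 0.00297). None of the 3 passed in edgeR, where adjusted p was 0.0502 to 0.121.

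The proteins that assemble with snoRNAs and those that carry out NMD were examined in the same way. Of 12 snoRNP core and assembly genes, DESeq2 called 2 lower in both mutants, beside 3.87% of all genes in cKO and 3.79% in dcKO, and edgeR called none of these or of the NMD factors. These were Nhp2, of the pseudouridylation particles, at -1.22 in cKO and -1.20 in dcKO (DESeq2 adjusted p = 0.00645 and 0.00634), and Fbl, the methyltransferase fibrillarin. Fbl was near the fold threshold, at -0.991 and -1.011 in edgeR (DESeq2 adjusted p = 0.0148 and 0.0107). Nufip1, an assembly factor, was higher at 0.81 and 0.88 (DESeq2 adjusted p = 0.00374 and 0.00183), short of the fold threshold. Of 10 NMD factors, DESeq2 called 2 lower in both mutants, beside those same shares of all genes, and none higher. They were Smg5, at -1.11 and -1.010 (DESeq2 adjusted p = 0.000267 and 0.000797), and Upf1, the central NMD helicase, at -0.995 and -1.13 (DESeq2 adjusted p = 0.0402 and 0.0161). The median over the NMD factors was -0.29 in cKO and 0.0093 in dcKO. Of 7 protein-coding RNAs known as NMD targets, 5 were tested and none was called by either tool in either mutant, with medians of -0.16 and -0.15.

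Ribosomal protein genes, whose start regions hold pyrimidine runs of the same median length, were mostly below 0 in log2 fold change. Of 77 tested, 71 had a log2 fold change below 0 in cKO and 59 in dcKO, with medians of -0.56 and -0.53. DESeq2 called 10 lower in cKO (3.87% of all genes) and 6 in dcKO (3.79% of all genes) and none higher, and edgeR called 0 of the 77 in either mutant, with 33 and 29 lower at an unadjusted p under 0.05 (11.7% and 11.2% of all genes). Rplp0, of the ribosomal stalk, was at -1.37 and -1.19 (DESeq2 adjusted p = 0.0136 and 0.0302), and Rps2, of the small subunit, at -1.07 and -0.96 (DESeq2 adjusted p = 0.000718 and 0.00212). The medians of the host RNAs were -0.49 in cKO and 0.063 in dcKO. Without dcKO replicate 2 the dcKO medians were -0.40 for the host RNAs and -0.49 for the ribosomal protein genes, and no difference between these medians was tested.

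**Figure D5:**
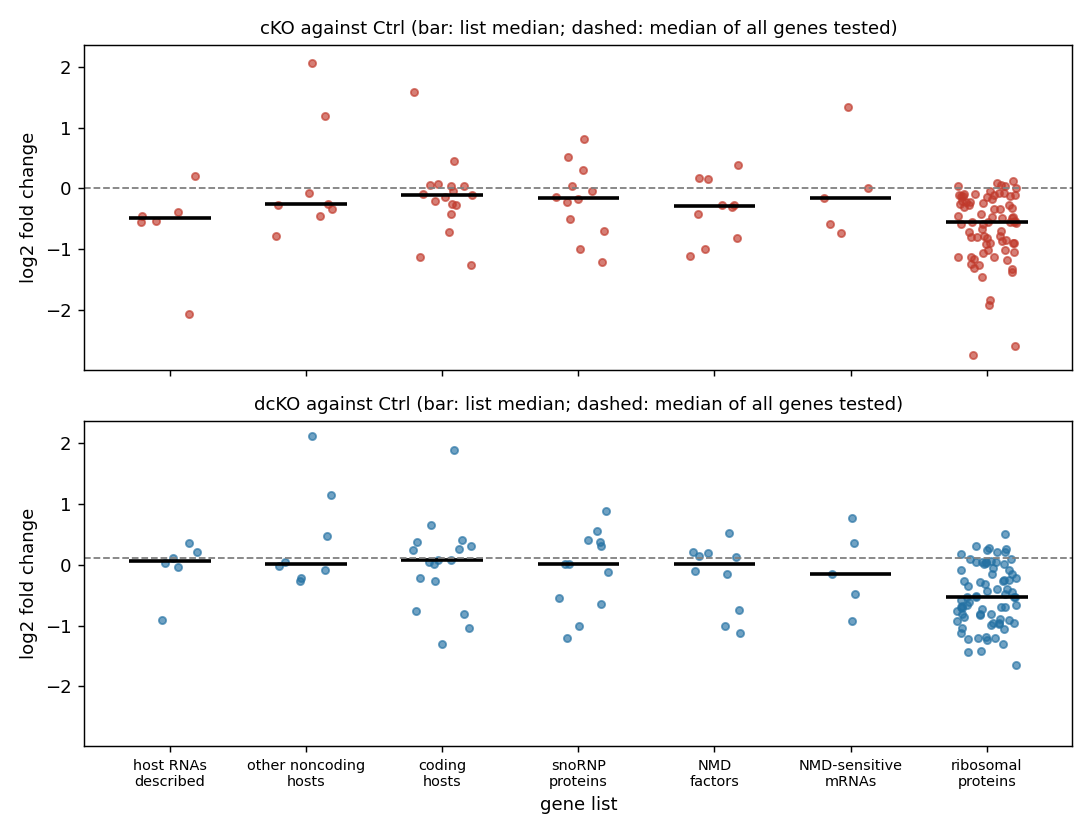
Log2 fold changes (edgeR) in cKO against Ctrl and dcKO against Ctrl, with 1 point per tested gene, by gene list, a bar at the list median and a dashed line at the median of all genes tested (0.0098 and 0.111). The host RNAs have a median of -0.49 in cKO and 0.063 in dcKO (-0.40 without dcKO replicate 2), and the ribosomal protein genes have medians of -0.56 and -0.53.

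Summed markers of other cell types are given beside these values. Endothelial and blood markers (8 genes) summed to 5285 to 7506 CPM in Ctrl, 6703 to 10844 in cKO and 3645 to 5244 in dcKO, lowest in dcKO replicate 2, where most host RNAs were highest. Globin RNAs made up most of this sum, and Hbb-y alone had means of 4002 CPM in Ctrl and 6583 in cKO, while the median log2 fold change of the 8 genes was 0.073 in cKO and -0.91 in dcKO. The endothelial genes Pecam1 (25.3 CPM), Cdh5 (31.7) and Kdr (56.9) were highest of the dcKO embryos in replicate 2, and Cldn5 (1.05) was lowest there. Choroid plexus and hem markers (6 genes) summed to 15.0 to 33.6 CPM in Ctrl, 59.0 to 200.4 in cKO and 69.9 to 219.8 in dcKO, highest in dcKO replicate 1, where Snhg8 was lowest. Of the cKO embryos, replicate 1 had the lowest sum (59.0) and also the lowest Snhg8 (1.09 CPM). Replicate 3 of the cKO had the highest sum (200.4), with Snhg8 at 1.21. Mesenchyme markers (6 genes) ran from 779.9 to 858.3 CPM in Ctrl, 451.9 to 693.8 in cKO and 323.9 to 517.8 in dcKO. The collagen genes Col1a1, Col1a2 and Col3a1 made up most of that sum and were below 0 in log2 fold change in cKO, whereas Lum, Dcn and Foxc1 were above 0 (0.19, 0.00078 and 0.32), and in dcKO 5 of 6 were below 0. The 6 cortical neuron markers ran from 1013 to 1401 CPM in Ctrl, 689.7 to 1104 in cKO and 493.0 to 1112 in dcKO. Tubb3 had the largest share of the control sum, with means of 640.8 CPM in Ctrl and 329.2 in cKO, and 3 of the 6 neuron markers were above 0 in log2 fold change in cKO, among them Neurod6 at 0.82 and Tbr1 at 0.27. Ttr, a choroid plexus marker, had no read in any control, and all others of these 4 lists were present in every group. The part of these cells in the host RNA values was not tested.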

How the data were processed

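The authors deposited raw counts of reads per gene from stranded poly(A) libraries of 9 embryos, per the labels made with FastQC, Cutadapt, STAR on mm39 and featureCounts. Their versions, the gene annotation release and the strand setting are not given in the sources used here. Columns were assigned to genotype and replicate by their labels, and none was left out. Replicates are separate embryos. The 13680 genes counted above 10 reads in all embryos were tested in R 4.3.3 with edgeR 4.0.16 (TMM scaling, quasi-likelihood test, 1 model over 9 embryos, Benjamini-Hochberg over all genes tested), with calls at adjusted p under 0.05 and a change of more than 1 on the log2 scale. DESeq2 1.42.0 and limma 3.58.1 (voom) were alternatives, with other scaling and filters, only the embryos compared, blocks on the replicate number and on the number in the sample labels, and each embryo left out in turn. The edgeR fit was tested on simulated data, with a pass condition only at a low, set spread between embryos. That condition does not show how many changed genes the fit finds at the spread of these embryos.

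CPM and RPKM use TMM library sizes and exon lengths from GENCODE M21 (GRCm38). Symbols matched 52081 of 57010 genes. Coordinates are those of GRCm38, and none was converted to mm39. GC content came from the longest GENCODE M21 transcript and was examined after the data were seen, as were the genes nearest to Snhg8. Poisson intervals and the floor of 3 reads cover counting error only. Figures were drawn with matplotlib 3.10.9 in Python 3.11.15. The genes named are the members, Cnot3, Trp53, genes starting within 5 kb of a member that could be tested, up to 3 genes per list with the largest mean log2 fold change among those whose 6 mutant embryos lay on one side of every control, and the 10 genes nearest to the members' mean profile, of which 1 is not reported here. The members and lists were chosen with earlier results of these data known. The marker genes named beside the sums, and Hes5, Gm8730 and Ier2, nearest to Snhg8, were named after their values were seen.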

Additional observations from a re-analysis of the deposited data

How the results depend on the processing

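Over 19 alternatives, of which the label block is a block on the number in the sample labels, Gas5, Snhg1, Snhg5, Snhg6 and Snhg8 kept a negative log2 fold change in cKO against Ctrl. Snhg8 stayed between -2.39 and -1.85, with an adjusted p from 0.000212 (label block) to 0.251. The lowest adjusted p was 0.0168 for Snhg1 (voom), and 0.00473 for Gas5, 0.0125 for Snhg5 and 0.034 for Snhg6 (label block). At an adjusted p under 0.05, 27.3% of all genes were lower with voom and 23.5% with the label block. That block compares cKO with Ctrl only through cKO replicate 2 with Ctrl replicate 1 and cKO replicate 3 with Ctrl replicate 2. Its p-values rest on these pairs. The count of host RNAs called in cKO against Ctrl went from 0 to 1 (Snhg8) with DESeq2, voom sample weights, the 6 embryos compared, the label block, and DESeq2 with the replicate block (chosen after seeing the data). These settings called 3.3% to 7.52% of all genes lower. Leaving out embryos gave 0 to 1, the 1 without dcKO replicate 1 (2.93% of all genes lower) or 3 (5.49%). In dcKO against Ctrl the count was 1 with voom weights (Snhg8, -2.51; 15.9% of all genes lower). In dcKO against cKO it was 0 to 2 with embryos left out (2 without dcKO replicate 3, 2.58% of all genes higher). The label block gave Snhg8 a log2 difference of 3.18 there. Only 1 dcKO embryo shares its number with another embryo, and no dcKO and cKO embryo share a number.

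Directions in dcKO against Ctrl turned for Gas5 (DESeq2 -0.0012, voom -0.12, RLE factors -0.001, filterByExpr -0.072, no filter -0.086, 6 embryos -0.038, replicate block -0.013, DESeq2 with replicate block -0.039, label block -0.78), Snhg12 (voom -0.13, no filter -0.0099, label block -0.39), and with the label block also for Snhg1 (-0.96), Snhg6 (-0.20) and Snhg8 (0.91). That block rests on 1 dcKO and Ctrl pair. With embryos left out, the ranges were -0.37 to 0.28 for Gas5, -0.39 to 0.74 for Snhg1, -0.42 to 0.22 for Snhg5, -0.10 to 0.45 for Snhg6, -1.57 to -0.46 for Snhg8 and -0.45 to 0.39 for Snhg12. The negative ends of the Gas5, Snhg1, Snhg5, Snhg6 and Snhg12 ranges are without dcKO replicate 2. Snhg12 in cKO against Ctrl ranged from -0.0058 (without Ctrl replicate 2) to 0.50. In dcKO against cKO, Snhg8 turned with voom (-0.24), Gas5 (-0.36) and Snhg1 (-0.46) with the label block, and with embryos left out Snhg12 ranged from -0.66 to 0.11 and Snhg8 from 0.50 to 1.61. The causes were not tested.

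The replicate block changed no count of host RNAs called by edgeR (0 in each comparison). Replicate numbers did not pair the embryos: deviations of same-numbered embryos correlated at -0.169 on average (9 pairs, -0.537 to 0.126), those of other embryos at 0.0836 (18 pairs), and 0 of 9 embryos correlated best with their own number. Over all genes, calls depended on the setting: 0 to 957 higher and 0 to 1029 lower in cKO, 0 to 1491 and 0 to 2177 in dcKO, and 0 to 1349 and 0 to 883 in dcKO against cKO. With the label block, the dcKO against Ctrl values of Gas5 (-0.78) and Snhg1 (-0.96) come from a single dcKO embryo, replicate 3, so no p-value is given for them. Intervals come from 3 embryos a group. Snhg8 and Snhg12 rest on 30 to 197 reads per embryo.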
